A study of Mus musculus with 18 samples.

Results

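Imprinted growth control genes are genes expressed mainly from the maternal or the paternal copy whose products set the growth of embryonic tissues. Here 10 of them were followed in brown preadipocytes treated with FGF6, a secreted fibroblast growth factor: the paternally expressed Igf2, Dlk1, Mest, Peg3, Plagl1, and Ndn, and H19, Meg3, Cdkn1c, and, in most tissues, Grb10 from the maternal copy. They were chosen by name, as the rows of the count table whose Ensembl identifiers carry these symbols in GENCODE, and make up 10 of its 48023 genes. Earlier results of these data were known when they were chosen, so the counts of members called are a description. Counts were high enough for a test in 8 of the 10, among 15071 genes tested, whereas Ndn had too few and Dlk1 had none. The cells were murine brown preadipocytes, an undifferentiated line from the stromal-vascular fraction of brown fat, immortalized with a viral T antigen, a step that all groups shared. Cells were exposed to FGF6 (200 ng/ml) or its vehicle, and RNA was taken after 4, 8, and 24 h, giving 6 groups with 3 libraries in each and 18 libraries in total. Strain, age, and the number of clones behind the line were not given in the sources used here. Whether the 3 libraries of a group came from separate cultures is not stated, so p-values measure only the spread between these libraries, which may be technical.

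Imprinted genes lie in clusters, and a region methylated on the copy from 1 parent decides which genes of the cluster are transcribed from which copy. Igf2 and the noncoding RNA H19 sit side by side, share enhancers, and in the classical model are used by opposite parental copies, because the protein CTCF binds the unmethylated maternal control region and keeps the enhancers from Igf2. Many of these genes are high in the embryo and in precursor cells and fall after birth, and several, Mest and Dlk1 among them, are studied in fat for their part in the growth of adipocytes and in holding preadipocytes undifferentiated. The counts carry no information on the parental copy, and DNA methylation was not measured.

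Positions are those of GENCODE on GRCm38, the build the authors aligned to. H19 (ENSMUSG00000000031, chr7:142575529-142578143, minus strand) is annotated as a long intergenic noncoding RNA. Igf2 (ENSMUSG00000048583, chr7:142650766-142666816, minus strand) and Cdkn1c (ENSMUSG00000037664, chr7:143458339-143461050, minus strand) lie on the same stretch of chromosome 7 and code for proteins. Peg3 (ENSMUSG00000002265, chr7:6703892-6730431, minus strand) and Ndn (ENSMUSG00000033585, chr7:62346569-62350262, plus strand) lie on chromosome 7 as well. Dlk1 (ENSMUSG00000040856, chr12:109452823-109463336, plus strand) and the noncoding RNA Meg3 (ENSMUSG00000021268, chr12:109541001-109571726, plus strand) belong to another cluster. The remaining genes are Mest (ENSMUSG00000051855, chr6:30723547-30748465, plus strand), Plagl1 (ENSMUSG00000019817, chr10:13060504-13131694, plus strand), and Grb10 (ENSMUSG00000020176, chr11:11930508-12038683, minus strand). Since the strand setting of the counting is not given in the sources used here, reads of overlapping genes on opposite strands cannot be told apart. Mest shares 912 exonic bases with Copg2 on the other strand, which had up to 2576 counts in a library. Meg3 shares 1228 with Gm26906 and Cdkn1c 625 with Gm44732, both on the other strand and both at 0 counts in every library.

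Some of the loci, H19, Igf2, Mest, and Meg3, are also hosts of microRNAs, whose mature sequences are shown because the changes described here concern the host transcripts alone. Each sequence is from RefSeq (GRCm38.p6) and runs 5′ to 3′, with the seed, bases 2 to 8, in capitals.
mmu-miR-675-5p (H19, chr7:142577112-142577133, minus strand): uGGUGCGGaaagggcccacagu
mmu-miR-675-3p (H19, chr7:142577078-142577099, minus strand): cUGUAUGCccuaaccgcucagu
mmu-miR-483-5p (Igf2, chr7:142654968-142654989, minus strand): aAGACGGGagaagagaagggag
mmu-miR-483-3p (Igf2, chr7:142654932-142654952, minus strand): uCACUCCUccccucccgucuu
mmu-miR-335-5p (Mest, chr6:30741314-30741336, plus strand): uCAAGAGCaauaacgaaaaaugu
mmu-miR-335-3p (Mest, chr6:30741354-30741375, plus strand): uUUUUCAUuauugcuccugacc
mmu-miR-770-5p (Meg3, chr12:109563710-109563731, plus strand): aGCACCACgugucugggccacg
mmu-miR-770-3p (Meg3, chr12:109563744-109563765, plus strand): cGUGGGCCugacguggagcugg
All 8 seeds differ from each other. The rows of these microRNA genes (Mir675, Mir483, Mir335, and Mir770) held 0 counts in each of the 18 libraries, and the mature microRNAs were not measured. Mir675 and Mir770 overlap exons of H19 and Meg3, whereas Mir483 and Mir335 lie in introns of Igf2 and Mest.

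Promoter sequences are shown for Mest, Peg3, and Plagl1, 3 paternally expressed members whose promoters are known to carry an imprint, a methylation mark set in the egg. Each window runs 5′ to 3′ on the strand of the gene, from 250 bases before to 50 after the start in RefSeq (GRCm38.p6), with each CpG, the dinucleotide that can be methylated, in capitals.
Mest (second of 3 windows, chr6:30737800-30738099, plus strand): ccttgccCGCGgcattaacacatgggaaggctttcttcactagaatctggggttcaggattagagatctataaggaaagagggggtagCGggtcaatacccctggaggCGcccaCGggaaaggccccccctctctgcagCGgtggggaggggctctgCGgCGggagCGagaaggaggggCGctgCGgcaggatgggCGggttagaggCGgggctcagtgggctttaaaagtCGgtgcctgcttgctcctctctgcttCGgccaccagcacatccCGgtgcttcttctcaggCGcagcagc
Peg3 (chr7:6730370-6730669, minus strand): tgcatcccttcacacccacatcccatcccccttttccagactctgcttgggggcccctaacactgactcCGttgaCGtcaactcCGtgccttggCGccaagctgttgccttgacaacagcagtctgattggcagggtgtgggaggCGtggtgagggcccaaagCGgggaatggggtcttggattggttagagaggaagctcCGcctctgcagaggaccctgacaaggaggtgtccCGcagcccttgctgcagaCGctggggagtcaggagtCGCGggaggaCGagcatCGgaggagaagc
Plagl1 (chr10:13090582-13090881, plus strand): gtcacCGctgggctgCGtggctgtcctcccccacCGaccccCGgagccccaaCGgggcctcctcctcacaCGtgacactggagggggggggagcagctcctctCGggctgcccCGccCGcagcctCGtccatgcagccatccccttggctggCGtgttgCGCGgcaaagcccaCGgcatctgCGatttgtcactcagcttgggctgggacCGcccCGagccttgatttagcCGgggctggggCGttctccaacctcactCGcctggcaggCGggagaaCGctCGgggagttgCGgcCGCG
They held 17, 13, and 26 CpGs, while the median over all 32851 windows of this length was 7. At least 17 CpGs occurred in 31.4% of those windows, at least 13 in 37.9%, and at least 26 in 16.9%. The 8 bases GGGGCCCC, a motif bound by PLAGL1 itself, were searched on both strands and occurred in the Peg3 window, 201 bases before the start, and in 1.08% of all windows. No window of another member held it. The AP-1 motif TGANTCA, searched the same way because growth factors induce AP-1, was in none of the member windows and in 7.81% of all windows. A match of this kind is a description of the letters and not a binding site. Windows were matched for 8 of the 10 members and not for H19 and Cdkn1c.

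Library totals ranged from 24327816 to 33471980 counts, and 3 counts, taken as the floor of detection, equal 0.0905 to 0.126 CPM by library, a limit that covers counting error only. CPM is the count of a gene scaled to a common library size. A gene was called changed at a false discovery rate under 0.25, as in the methods of the study, by the quasi-likelihood test of edgeR. Its p-values were adjusted by Benjamini-Hochberg over all 15071 genes. Every adjusted p given here is from that test, unless a refit or another method is named. Those have their own adjustment, over the genes they tested. With 3 libraries against 3, an exact permutation test of a single value cannot go below 0.1. The label of the cells was checked against markers. The 9 preadipocyte and stromal markers (Pdgfra, Pdgfrb, Ly6a, Cd34, Thy1, Col1a1, Col3a1, Lum, and Ebf2) were all detected and summed to between 3980 and 4170 CPM in vehicle at 4 h. The other lists were not silent, since mature adipocyte markers summed to 98.8 to 104 CPM there, muscle markers to 14.5 to 16.1, and immune markers to 14.3 to 15.3. Of 7 mature adipocyte markers, Lep was at 0 and 3, Lep included, never exceeded 3 counts. Myf5 among 6 muscle markers and Cd3e among 6 immune markers were at 0 in all libraries.

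A single library stood apart from its group. The counts of replicate 3 of vehicle at 24 h differed from those of replicates 1 and 2 with a chi-square per degree of freedom of 37.9 and 41.3, where the other 16 pairs of libraries within groups gave 2.44 to 7.63. Without it, all 8 members tested were still lower at 24 h, with log2 fold changes of −3.95 for H19, −3.25 for Mest, −2.57 for Igf2, −2.46 for Cdkn1c, −1.45 for Peg3, −1.38 for Meg3, −0.67 for Plagl1, and −0.06 for Grb10 (adjusted p = 0.191 for Grb10 and at most 0.0012 for the others). Other imprinted genes were then 13 higher and 13 lower at 24 h, the IGF and CIP/KIP list 2 and 6, and the imprint factors 8 and 4. The shares over all genes in this refit are not given here, so these counts are a description. With all libraries, 40.5% of all genes tested were higher and 42.9% lower at 24 h. Of the other genes named here for their change at 24 h, each kept its direction and its call without this library, Phlda2 not among those refitted.

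FGF6 lowered most of the growth control genes, and by 24 h all 8 that could be tested. At 24 h, H19 was 16.5-fold, Mest 9.97-fold, Igf2 6.06-fold, and Cdkn1c 4.93-fold lower than in vehicle. Smaller decreases were found for Peg3 (2.69-fold), Meg3 (2.56-fold), Plagl1 (1.62-fold), and Grb10 (1.09-fold). At 4 h the members were still divided, since 5 were lower, Plagl1 alone was higher, and Meg3 and Cdkn1c were not called.

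These counts stand beside a wide response of the whole transcriptome. At 4 h, 33.9% of all genes tested were higher and 41.8% were lower, and of the 8 members 1 was higher and 5 lower. At 8 h, 37.8% of genes were higher and 44.4% lower, and the members were 0 higher and 7 lower, with Cdkn1c not called. At 24 h, 40.5% were higher and 42.9% lower, and the members were 0 higher and 8 lower. Over the 8 members the median log2 fold change moved from −0.34 at 4 h to −0.64 at 8 h and −1.86 at 24 h, while over all genes it was −0.05, −0.05, and −0.02. At a false discovery rate under 0.05, 1 member was higher and 5 were lower at 4 h, where 28.6% and 34.2% of all genes were. At 8 h that threshold left 0 higher and 6 lower (32.4% and 38.4% of all genes), and at 24 h 0 higher and 8 lower (35.9% and 37.9%).

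**Figure D1:**
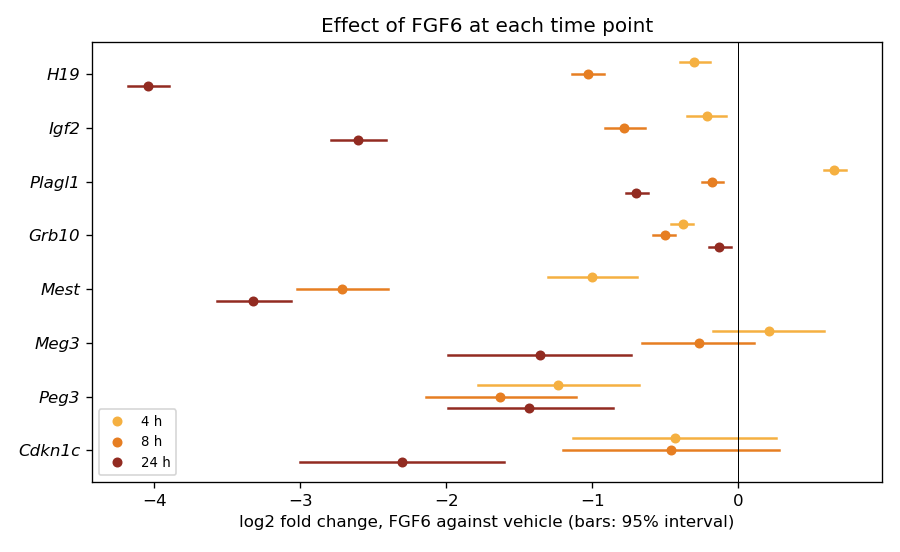
Log2 fold change of FGF6 against vehicle (x axis) for the 8 members tested (y axis) at 4, 8, and 24 h. Points are estimates of edgeR's quasi-likelihood fit on 3 libraries per group and bars are 95% intervals from its standard error. Plagl1 lay above 0 at 4 h and below it at 8 and 24 h, while H19 reached −4.04 at 24 h.

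Compared per length of exon, the members spanned a wide range. In vehicle at 4 h, H19 had the highest level, at 93.5 ± 2.51 RPKM (CPM per kilobase of exon, SD, n = 3), followed by Plagl1 at 13.9 ± 0.128 and Grb10 at 13.6 ± 0.402, which did not differ beyond their spread. Igf2 came next with 5.4 ± 0.356 RPKM. Mest had 0.776 ± 0.0196 RPKM and Cdkn1c 0.368 ± 0.154. Meg3 (0.113 ± 0.00619 RPKM) and Peg3 (0.113 ± 0.0118) were at the same level, above Ndn at 0.0319 ± 0.013 and Dlk1 at 0. By 24 h of FGF6 the order had changed at the top, with Grb10 at 13.9 ± 0.257 RPKM, Plagl1 at 10.2 ± 0.06, and H19 at 4.31 ± 0.2.

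**Figure D2:**
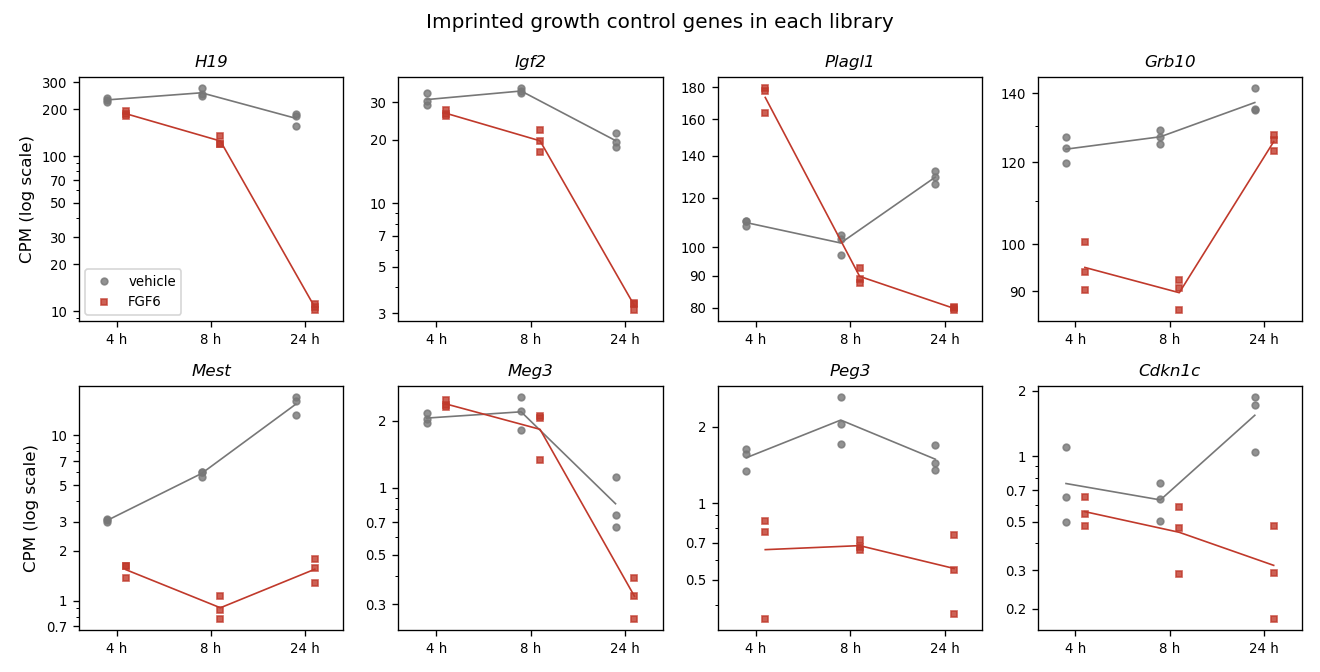
CPM of each of the 18 libraries (y axes, log scale, with its own range for each gene) at 4, 8, and 24 h for the 8 members tested. Grey circles are vehicle, red squares FGF6, and lines join the means of 3 libraries. Vehicle and FGF6 libraries do not overlap at 24 h for any of the 8 genes. The share of all genes without overlap was not computed, so this count is a description. Mest rises in vehicle but not in FGF6.

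Igf2 encodes insulin-like growth factor 2, a secreted growth factor of the fetus that acts through the IGF1 receptor. Its vehicle libraries gave 33.1, 29.1, and 30.6 CPM at 4 h, 33.9, 35, and 33.1 at 8 h, and 18.5, 21.4, and 19.5 at 24 h. With FGF6 the values were 25.9, 26.5, and 27.6 CPM at 4 h, 19.6, 22.2, and 17.4 at 8 h, and 3.32, 3.11, and 3.38 at 24 h. At every time all FGF6 libraries were below all vehicle libraries, and the gap was widest at 24 h. The log2 fold change was −0.21 ± 0.07 (SE, adjusted p = 0.0075) at 4 h, −0.78 ± 0.07 (adjusted p = 2.16e-10) at 8 h, and −2.6 ± 0.1 (adjusted p = 6.36e-18) at 24 h. In GENCODE, Igf2 shares 3596 exonic bases with the gene model Gm49394 on the same strand, which has no row in the count table.

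H19 is a long noncoding RNA that is abundant in embryonic tissue and is the neighbour of Igf2. Vehicle libraries held 236, 224, and 231 CPM at 4 h, 243, 273, and 251 at 8 h, and 156, 181, and 188 at 24 h. FGF6 libraries held 187, 181, and 195 CPM at 4 h, 135, 120, and 120 at 8 h, and 10.1, 10.6, and 11.1 at 24 h. The groups did not overlap at any time, and the 3 FGF6 libraries at 24 h stood far below the other 15. As log2 fold changes these were −0.3 ± 0.05 (SE, adjusted p = 4.07e-05), −1.03 ± 0.06 (adjusted p = 1.13e-14), and −4.04 ± 0.07 (adjusted p = 9.38e-25). In raw counts, the fall at 24 h was from 4463, 6009, and 4464 to 278, 296, and 303.

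H19 and Igf2 fell at the same times, but not by the same amount. The ratio of H19 to Igf2 CPM was 7.11, 7.68, and 7.56 in vehicle at 4 h and 7.21, 6.83, and 7.04 in FGF6 (exact two-sided permutation p = 0.2). At 8 h it was 7.18, 7.81, and 7.59 in vehicle and 6.87, 5.41, and 6.91 in FGF6 (exact permutation p = 0.1). By 24 h it was 8.47, 8.46, and 9.64 in vehicle and 3.05, 3.4, and 3.29 in FGF6, a log2 difference of −1.45 (exact permutation p = 0.1, the smallest that 3 against 3 can give). The libraries overlapped at 4 h and were separate at 8 and 24 h. This ratio is of CPM without division by length, and the length would change its level but not its log2 differences.

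**Figure D3:**
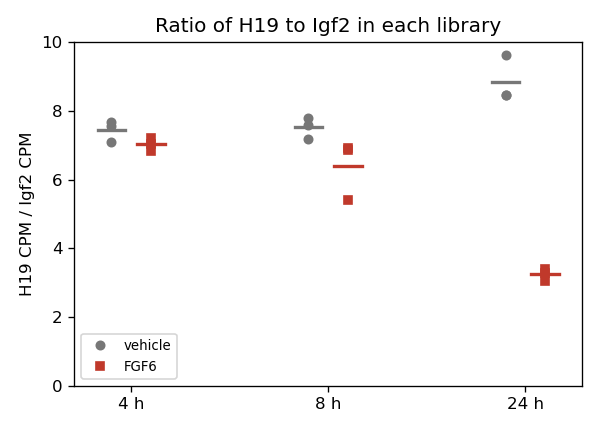
Ratio of H19 CPM to Igf2 CPM (y axis, from 0) in each of the 18 libraries at 4, 8, and 24 h. Circles are vehicle, squares FGF6, and horizontal bars the means of 3 libraries. The 3 FGF6 libraries at 24 h lie between 3.05 and 3.4, below all other libraries.

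Grb10 encodes an adaptor that binds the insulin and IGF1 receptors and limits their signal. Its libraries gave 120, 127, and 124 CPM in vehicle at 4 h, 129, 127, and 125 at 8 h, and 135, 135, and 142 at 24 h. With FGF6 they gave 90.3, 93.9, and 101 CPM at 4 h, 90.7, 92.2, and 86.3 at 8 h, and 123, 128, and 126 at 24 h. All FGF6 libraries were below vehicle at each time, but at 24 h the groups nearly met. Grb10 was lower by a log2 fold change of −0.38 ± 0.04 (SE, adjusted p = 2.52e-09) at 4 h, −0.5 ± 0.04 (adjusted p = 1.01e-11) at 8 h, and −0.13 ± 0.04 (adjusted p = 0.00406) at 24 h. The value at 24 h was −0.06 (adjusted p = 0.191) without replicate 3 of vehicle and −0.07 (adjusted p = 0.159) without replicate 1 of FGF6.

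The wider IGF axis and the other CIP/KIP inhibitors of the cell cycle were followed as a list of 10 genes, all of them tested. At 4 h, 5 were higher and 3 lower (33.9% and 41.8% of all genes), at 8 h, 5 and 5 (37.8% and 44.4%), and at 24 h, 2 and 7 (40.5% and 42.9%), with a median log2 fold change of −0.16 at 24 h against −0.02 over all genes. Igf1, the related growth factor, fell most, from 14.7 ± 0.429 CPM in vehicle to 0.339 ± 0.12 with FGF6 at 24 h (log2 fold change −5.42, adjusted p = 9.02e-21). Irs2, an adaptor of the insulin and IGF1 receptors, was also lower at 24 h (−0.84, adjusted p = 1.35e-11). Igf2bp1, an RNA-binding protein named for its binding of Igf2 mRNA, was the gene with the largest increase there (0.52, adjusted p = 2.97e-11).

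Cdkn1c encodes p57, an inhibitor of cyclin-dependent kinases that slows the cell cycle. Vehicle libraries gave 1.1, 0.649, and 0.501 CPM at 4 h, 0.505, 0.636, and 0.753 at 8 h, and 1.72, 1.87, and 1.05 at 24 h. In FGF6 libraries it had 0.481, 0.542, and 0.65 CPM at 4 h, 0.586, 0.471, and 0.288 at 8 h, and 0.292, 0.179, and 0.477 at 24 h. The groups overlapped at 4 and 8 h and were separate at 24 h, when vehicle was at its highest. The log2 fold change was −0.43 ± 0.35 (SE, adjusted p = 0.3) at 4 h, −0.46 ± 0.38 (adjusted p = 0.286) at 8 h, and −2.3 ± 0.36 (adjusted p = 2.74e-06) at 24 h. At 4 h it was −0.06 without replicate 1 of vehicle and −0.65 (adjusted p = 0.14) without its replicate 3, and at 8 h −0.7 (adjusted p = 0.173) without replicate 1 of FGF6, −0.59 (adjusted p = 0.208) without replicate 1 of vehicle, and −0.21 without replicate 3 of FGF6, so that the call at these times depended on single libraries. Library sizes alone or upper-quartile factors also gave the call at both times (adjusted p between 0.195 and 0.243). These values rest on few reads, since at 24 h there were 49, 62, and 25 counts in vehicle and 8, 5, and 13 with FGF6. Cdkn1b, which encodes the related inhibitor p27, was lower than in vehicle at 24 h as well (−0.77, adjusted p = 1.67e-15). In vehicle Cdkn1b had risen from 4 to 24 h by a log2 fold change of 0.79.

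Plagl1 encodes a zinc finger transcription factor, also known as ZAC1, that can arrest the cell cycle and has been linked to the control of other imprinted genes. Its vehicle libraries had 108, 110, and 110 CPM at 4 h, 97.1, 105, and 103 at 8 h, and 130, 132, and 126 at 24 h. With FGF6 it had 164, 178, and 179 CPM at 4 h, 89.1, 92.6, and 87.8 at 8 h, and 80.1, 79.3, and 80.2 at 24 h. The FGF6 libraries were therefore all above vehicle at 4 h and all below it at 8 and 24 h. Plagl1 rose at 4 h (log2 fold change 0.66 ± 0.04, SE, adjusted p = 2.43e-14) and was lower at 8 h (−0.18 ± 0.04, adjusted p = 0.000156) and at 24 h (−0.7 ± 0.04, adjusted p = 6.95e-15). Its effect at 24 h minus that at 4 h was −1.36 (adjusted p = 4.13e-17), and no other member changed direction among its called effects.

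Peg3 encodes a large zinc finger protein linked to growth and to maternal behaviour. In vehicle its libraries had 1.56, 1.64, and 1.34 CPM at 4 h, 1.7, 2.61, and 2.05 at 8 h, and 1.44, 1.69, and 1.35 at 24 h. In FGF6 they had 0.85, 0.351, and 0.772 CPM at 4 h, 0.716, 0.672, and 0.657 at 8 h, and 0.547, 0.75, and 0.367 at 24 h. All FGF6 libraries were below all vehicle libraries, over all times. Peg3 was lower by a log2 fold change of −1.23 ± 0.28 (SE, adjusted p = 0.00046) at 4 h, −1.63 ± 0.26 (adjusted p = 5.38e-06) at 8 h, and −1.43 ± 0.29 (adjusted p = 9.76e-05) at 24 h. A difference of the effect between times was not detected, with −0.2 (95% interval −1.01 to 0.61, adjusted p = 0.716) for 24 h minus 4 h.

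Mest, also called Peg1, encodes a protein with an alpha/beta hydrolase fold that has been used as a marker of fat expansion. Vehicle libraries gave 2.98, 3.06, and 3.14 CPM at 4 h, 6.03, 5.59, and 6.02 at 8 h, and 13.3, 17, and 16.1 at 24 h. FGF6 libraries gave 1.63, 1.37, and 1.63 CPM at 4 h, 0.879, 0.773, and 1.07 at 8 h, and 1.57, 1.29, and 1.8 at 24 h. Every FGF6 library was below every vehicle library, and the vehicle values climbed at each time while the FGF6 values stayed under 2.98 CPM, the lowest vehicle value. The log2 fold change was −1 ± 0.16 (SE, adjusted p = 5.13e-06) at 4 h, −2.71 ± 0.16 (adjusted p = 6.34e-14) at 8 h, and −3.32 ± 0.13 (adjusted p = 1.24e-17) at 24 h. Copg2, which overlaps Mest on the other strand and encodes a coat protein subunit of transport vesicles, was lower by −0.49 (adjusted p = 1.69e-07), −0.6 (adjusted p = 1.4e-09), and −0.36 (adjusted p = 2.37e-06) at the same times. It had 74.4 ± 6.11 CPM in vehicle and 57.8 ± 0.908 with FGF6 at 24 h, and its part in the Mest counts was not tested.

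Meg3 is a long noncoding RNA of the cluster that also holds Dlk1. Its vehicle libraries gave 1.95, 2.04, and 2.17 CPM at 4 h, 2.21, 2.54, and 1.81 at 8 h, and 1.12, 0.663, and 0.757 at 24 h. Those with FGF6 gave 2.48, 2.29, and 2.36 CPM at 4 h, 1.33, 2.05, and 2.1 at 8 h, and 0.328, 0.393, and 0.257 at 24 h. The FGF6 libraries were above vehicle at 4 h, overlapped with it at 8 h, and lay below it at 24 h. At 4 h the log2 fold change was 0.21 ± 0.19 (SE, adjusted p = 0.358), which did not pass the threshold. At 8 h it was −0.27 ± 0.2 (adjusted p = 0.221), a call that was lost without replicate 1 or 2 of vehicle or replicate 1 of FGF6 (highest adjusted p = 0.745, at −0.08). It was also lost with DESeq2 (adjusted p = 0.367), without the filter on low counts (adjusted p = 0.374), and with only the libraries compared (adjusted p = 0.297). At 24 h Meg3 was lower by −1.36 ± 0.32 (adjusted p = 0.000537), from 32, 22, and 18 counts in vehicle to 9, 11, and 7 with FGF6.

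Dlk1 encodes a membrane protein with EGF repeats, known in fat as preadipocyte factor Pref-1. It had 0 counts in each of the 18 libraries, 0 of 521285630 counts in all, which allows up to 0.00576 CPM over all libraries and between 0.0905 and 0.126 CPM in a single one. This marker of preadipocytes was thus not detected in either arm at any time, while its neighbour Meg3 was. In the same cluster, the noncoding RNA gene Rian also had 0 counts throughout. Dio3, which encodes a deiodinase that inactivates thyroid hormone, was lower at 24 h (log2 fold change −3.22, adjusted p = 1.53e-07), with 22 to 41 counts in vehicle and 1 to 7 with FGF6. Mirg, a noncoding RNA gene of the cluster, was lower at 24 h by −0.77 (adjusted p = 0.00509), and it and Rian were named for their position after their values were seen.

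Ndn encodes necdin, a growth suppressor of the MAGE family that restrains the formation of fat cells. Its counts were 5, 4, and 2 in vehicle at 4 h, 3, 10, and 8 at 8 h, and 9, 16, and 7 at 24 h. With FGF6 they were 6, 4, and 1 at 4 h, 2, 4, and 1 at 8 h, and 3, 2, and 2 at 24 h. The libraries overlapped at 4 and 8 h and were separate at 24 h, all near the floor of 3 counts with FGF6. The filter on low counts left Ndn out of the test. In a fit without that filter its log2 fold change at 24 h was −2.08 ± 0.69 (SE, adjusted p = 0.00719). In that fit 9 members were lower at 24 h, a description, since its share of all genes is not given here.

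The effect of FGF6 itself differed between times for most members, as it did for many of all genes tested. The effect at 8 h minus that at 4 h was lower for 6 of the 8 and higher for 0, where 49.1% of all genes differed in either direction. Of these 6, 4 passed a false discovery rate under 0.05, while Meg3 (−0.48, adjusted p = 0.203) and Grb10 (−0.12, adjusted p = 0.0955) did not, and leaving out 1 library left 4 to 6, the 4 without replicate 3 of FGF6 at 4 h. For 24 h minus 8 h, 6 were lower and 1 was higher, against 62.2% of all genes in either direction. For 24 h minus 4 h, 6 were again lower and 1 higher, against 69.4%. The higher one was Grb10 both times (0.38, adjusted p = 2.28e-06, and 0.26, adjusted p = 0.000218), and Peg3 was the one not called. H19 had the largest of these differences among the members, at −3.75 (adjusted p = 4.73e-21) for 24 h minus 4 h and −3.01 (adjusted p = 1.05e-18) for 24 h minus 8 h.

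Time in culture moved the members in vehicle too, as it moved many of all genes tested. From 4 to 24 h in vehicle, 4 members rose and 3 fell, where 37.5% of all genes were higher and 37.6% lower. Mest rose 5.05-fold (log2 fold change 2.34, adjusted p = 5.63e-15), and Cdkn1c (1.06, adjusted p = 0.00367), Plagl1 (0.24, adjusted p = 2.77e-06), and Grb10 (0.15, adjusted p = 0.00116) rose by less. Meg3 (−1.28, adjusted p = 2.67e-05), Igf2 (−0.64, adjusted p = 1.4e-08), and H19 (−0.4, adjusted p = 8.09e-07) fell. Peg3 was at −0.01 (adjusted p = 0.974).

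In FGF6 over the same interval, 1 member rose and 5 fell, where 40.3% of all genes were higher and 42.2% lower. H19 fell by 4.14 on the log2 scale (adjusted p = 1.06e-24), Meg3 by 2.85 (adjusted p = 8.62e-10), and Plagl1 by 1.12 (adjusted p = 5.32e-19). Igf2 had a log2 fold change of −3.03 (adjusted p = 2.21e-19) and Cdkn1c of −0.81 (adjusted p = 0.0918), of which the latter was −0.52 (adjusted p = 0.313) without replicate 2 of FGF6 at 24 h and −1.23 without replicate 3. Grb10 rose by 0.41 (adjusted p = 5.92e-10). Mest, at 0.02 (adjusted p = 0.942), did not show the increase seen in vehicle, and its FGF6 effect at 24 h minus that at 4 h was −2.32 (adjusted p = 1.72e-09).

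Other imprinted genes did not share a direction. Of 61 such genes listed, 37 were tested. At 4 h, 16 were higher and 15 lower (33.9% and 41.8% of all genes), at 8 h, 14 and 16 (37.8% and 44.4%), and at 24 h, 13 and 16 (40.5% and 42.9%), with a median log2 fold change of −0.05 at 24 h, near the −0.02 of all genes. The largest decreases after Dio3 were those of Peg10 (−1.6, adjusted p = 5.56e-22), a gene derived from a retrotransposon and needed in the placenta, and Pon3 (−1.45, adjusted p = 1.59e-13), a paraoxonase, which share a cluster on mouse chromosome 6. Dcn, a small proteoglycan of the matrix, rose from 21.4 ± 0.464 CPM in vehicle to 132 ± 26 with FGF6 (2.63, adjusted p = 1.72e-17). Nespas (1.38, adjusted p = 0.000109), a noncoding RNA gene at the Gnas cluster, and Rasgrf1 (1.14, adjusted p = 0.000268), a guanine nucleotide exchange factor, were also higher. Phlda2, which restrains the growth of the placenta and was named after its values were seen, had 0 counts in vehicle and 13 to 24 with FGF6 at 24 h, at least 5.75-fold higher when set against 3 counts in a single library. Libraries of the other groups had at most 6 counts. It thus passed the filter on low counts only through the group where it was high. Phlda2 was among the 37 tested, so the fold and the counts called in this list are a description. With Phlda2 at that bound the median of the list was still −0.05.

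**Figure D4:**
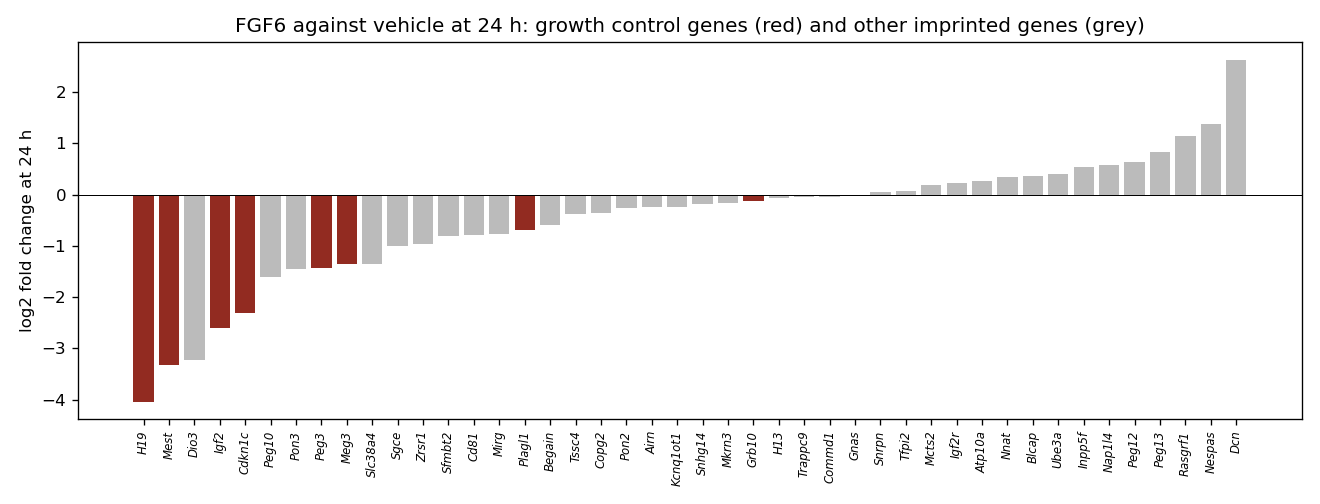
Log2 fold change of FGF6 against vehicle at 24 h (y axis, from edgeR's fit on 3 libraries per group) for the 8 members tested, in red, and 36 other imprinted genes, in grey, ordered by value. Phlda2 is left out because its vehicle libraries were at 0. The 8 red bars all lie below 0, from −4.04 for H19 to −0.13 for Grb10, while grey bars lie on both sides.

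Of 18 factors that set, keep, or remove imprints, 16 were tested. At 4 h, 9 were higher and 4 lower (33.9% and 41.8% of all genes), at 8 h, 7 and 6 (37.8% and 44.4%), and at 24 h, 7 and 4 (40.5% and 42.9%), with a median log2 fold change of 0.06 at 24 h. Dnmt3a, a DNA methyltransferase, was lower at 24 h (−0.95, adjusted p = 1.41e-10), as were the methylcytosine oxidases Tet1 (−0.89, adjusted p = 3.79e-07) and Tet2 (−0.32, adjusted p = 6.64e-05). Dnmt3l, a cofactor of DNA methyltransferases, was higher (1.8, adjusted p = 1.12e-07), at 0.856 ± 0.341 CPM in vehicle and 2.89 ± 0.0889 with FGF6. In vehicle Dnmt3l had fallen from 4 to 24 h (log2 fold change −2.58), so this comparison is with a vehicle level below that at 4 h. Trim28, a corepressor that protects imprints (0.55, adjusted p = 3.01e-14), and Smchd1, a chromatin protein that acts at some imprinted clusters (0.47, adjusted p = 3.97e-12), were higher as well.

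Markers of the cells moved at the same time as the members. The summed CPM of the 9 preadipocyte and stromal markers was 6020 to 6460 in vehicle and 1460 to 1530 with FGF6 at 24 h. Of the 9, 2 were higher and 7 lower, where 40.5% and 42.9% of all genes were, so the fall of the sum was not shared by all 9. Over the 7 mature adipocyte markers the sum was 151 to 174 CPM in vehicle and 63.4 to 69.8 with FGF6. Of these 7, 3 had enough counts for a test and all 3 were lower. Their median log2 fold change was −7.17, a larger fall than that of the sum. Muscle markers summed to 7.36 to 9.8 CPM in vehicle and 1.86 to 2.35 with FGF6, and immune markers to 6.45 to 7.99 and 3.36 to 3.97. Endothelial markers summed to 0.965 to 1.3 CPM in vehicle and 3.71 to 5.65 with FGF6, Schwann cell markers to 1.58 to 1.81 and 2.31 to 2.36, and epithelial markers stayed at or below 0.42. In bulk RNA, fewer cells of a type and less RNA per cell cannot be told apart. The part of these shifts in the changes of the members was not tested.

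The gene whose pattern was most like that of each member was sought among the other genes with a mean of at least 1 CPM, 12299 for Cdkn1c and 12298 for each of the rest, by Pearson's r of log2(CPM + 0.5) over the 18 libraries. The points share their libraries and groups, so these values are a description. H19 was most like Fbn1, a fibrillin of elastic matrix (r = 0.997), Igf2 most like Efemp2, a fibulin (r = 0.993), and Mest most like Slc35f5 (r = 0.992). Grb10 was most like Atrnl1 (r = 0.985), Meg3 like Gm13372 (r = 0.974), Plagl1 like Ppfibp2 (r = 0.962), and Peg3 like Dffa (r = 0.949). Cdkn1c, with the fewest counts of the 8, had its highest value with Tmbim6 (r = 0.883). Between members, the highest value was that of H19 with Igf2 (r = 0.99) and the lowest that of Meg3 with Grb10 (r = −0.465).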

How the data were processed

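Total RNA of brown preadipocytes was sequenced on an Illumina instrument as 18 libraries. Alignment was to GRCm38.p4 with STAR, reads were counted per GENCODE gene by featureCounts of Subread, and the authors deposited the raw counts, which are not normalized. Versions and the strand setting are not given in the sources used here. From the counts, genes were kept by filterByExpr with the 6 groups, TMM factors were computed (0.951 to 1.05), and a quasi-likelihood model with 1 mean per group and no covariate was fitted with edgeR 4.0.16 (R 4.3.3), using all 18 libraries at once. The standard error is the one implied by the F statistic. Depth (median 28922204.5 counts per library) limits what can be said of members under about 10 counts. Annotation was GENCODE M21, which held 98.3% of the identifiers.

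The members and lists were chosen with earlier results of these data known. By the rule for named genes, the text names all members and, per list, up to 3 genes with the largest increase and 3 with the largest decrease at 24 h among those with a false discovery rate under 0.05 and a mean of at least 1 CPM, and the gene most like each member. Same-numbered libraries of vehicle and FGF6 showed correlations of their deviations between -0.05 and 0.045, so the numbers were not taken to pair them. Alternatives were limma 3.58.1 with voom, DESeq2 1.42.0, upper-quartile factors or plain library sizes, no filter, a minimum of 10 counts in each library, a fit to the compared times alone, the replicate number as a block, a stricter threshold, and leaving out each library in turn. The code was tested on simulated data.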

Additional observations from a re-analysis of the deposited data

Results flagged for a closer look

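The values here were picked out because the FGF6 effect of a member differed between time points in the interaction test of edgeR's quasi-likelihood fit at an adjusted p under 0.05. Each is a difference of log2 fold changes.

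From 4 to 8 h, the effect on H19 differed by -0.74 (adjusted p = 7.56e-08), on Igf2 by -0.56 (adjusted p = 6.81e-05), on Mest by -1.71 (adjusted p = 4.6e-06), and on Plagl1 by -0.84 (adjusted p = 9.25e-12). For Plagl1 this spans a change of direction, from higher than vehicle at 4 h to lower at 8 h.

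From 8 to 24 h, the differences were -3.01 for H19 (adjusted p = 1.05e-18), -1.82 for Igf2 (adjusted p = 8.93e-12), -1.08 for Meg3 (adjusted p = 0.023), -0.61 for Mest (adjusted p = 0.0355), -0.52 for Plagl1 (adjusted p = 1.03e-08), -1.85 for Cdkn1c (adjusted p = 0.00665), and 0.38 for Grb10 (adjusted p = 2.28e-06). Grb10 moved back toward vehicle while the other 6 moved further below it.

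From 4 to 24 h, they were -3.75 for H19 (adjusted p = 4.73e-21), -2.39 for Igf2 (adjusted p = 1.63e-14), -1.57 for Meg3 (adjusted p = 0.00102), -2.32 for Mest (adjusted p = 1.72e-09), -1.36 for Plagl1 (adjusted p = 4.13e-17), -1.87 for Cdkn1c (adjusted p = 0.00375), and 0.26 for Grb10 (adjusted p = 0.000218).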

How the results depend on the processing

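Across the member effects and the alternatives other than leaving out a library, 543 values kept their direction and side of the threshold, 5 passed it newly, 9 no longer did, and 3 turned direction. Leaving out 1 library at a time gave 493, 5, 14, and 16. At 24 h, 6 to 9 members were lower under the alternatives, the 6 where 10 counts in every library were required, which left 6 members to test, and 8 with any library left out. For most alternatives the shares of all genes are not given here, so the counts of members in this section are a description. With only the libraries compared, 2 members were higher at 4 h in place of 1, the added gene being Meg3 (0.25, adjusted p = 0.199). With at least 10 counts in every library, 3 in place of 5 members fell from 4 to 24 h in FGF6, as fewer were tested. Direction turned for Cdkn1c in 8 h minus 4 h (0.02 with library sizes alone) and for Mest from 4 to 24 h in FGF6 (-0.03 without a filter and -0.03 with at least 10 counts in every library), neither of them called. With a library left out it turned for Cdkn1c in 8 h minus 4 h (-0.4 to 0.21), Peg3 in 24 h minus 8 h (-0.08 to 0.42) and 24 h minus 4 h (-0.51 to 0.07), Peg3 from 4 to 24 h in vehicle (-0.13 to 0.05) and in FGF6 (-0.54 to 0.04), and Mest from 4 to 24 h in FGF6 (-0.1 to 0.14), none of them called with all libraries, and the cause was not tested. The difference for Grb10 in 8 h minus 4 h (-0.12, adjusted p = 0.0955) was lost without replicate 3 of FGF6 at 4 h (-0.06, adjusted p = 0.441) or at 8 h (-0.07, adjusted p = 0.361). That for Meg3 in 8 h minus 4 h (-0.48, adjusted p = 0.203) was lost when any of 8 of the 12 libraries was left out (-0.29, adjusted p = 0.488, without replicate 1 of FGF6 at 8 h), and also with DESeq2 (adjusted p = 0.287) and without the filter (adjusted p = 0.349). Between 6 and 8 members were lower at 8 h over the alternatives. The effect on Plagl1 at 8 h was -0.12 (adjusted p = 0.0173) without replicate 3 of FGF6.

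With the replicate number as a block, 8 members were lower at 24 h and 7 at 8 h, as without it, and 12581 genes were called at 24 h against 12568. No call of a member changed under the block, and the numbers are not known to pair the libraries. At 24 h, Cdkn1c, Meg3, Peg3, and Ndn had few counts with FGF6, which sets the precision of their fold changes.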
